A study of Mus musculus with 4 samples.

Results

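One array of IMS/N stellate cells grown with ADSC medium, the culture medium of adipose tissue-derived stem cells, was set against one array of untreated IMS/N cells. The pair was chosen by sample title and makes up 2 of the 4 samples of the study, which asked about a restorative action of such stem cells on IL17A-activated stellate cells. The remaining 2 arrays, IL17A alone and IL17A plus ADSC medium, share no array with this pair and are used here to show each gene's level in 2 further cultures. With 1 array a group there were no replicates and no tests, and "higher" and "lower" refer to single arrays throughout.

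Hepatic stellate cells hold the vitamin A reserve of the normal liver and become collagen-producing myofibroblasts in fibrosis. IMS/N is an immortalized line made by SV40 infection of stellate cells from livers of normal 129/Sv mice, and all 4 cultures were of this line. The stem cells came from inguinal subcutaneous fat of male C57BL/6J mice aged 8 to 10 weeks. The labels give neither the amount of medium, nor the hours of exposure, nor what medium the untreated cells received. Slide 1 carried the arrays without medium and slide 2 those with it, and medium and slide therefore cannot be told apart in any value below.

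Total RNA was measured in 1 colour on an Agilent mouse array with 43379 non-control spots, of which 60.4% were well above background on the untreated array and 59.8% on the medium array. Of 14 stellate cell marker genes, 7 were well above background in untreated cells and 9 with medium. The genes for vimentin (Vim, 15.63 and 15.59 on the log2 scale), smooth muscle actin (Acta2, 13.39 and 13.45) and the type I collagen chains were bright on both arrays, whereas Lrat, Reln, Hand2, Gfap and Hgf were not well above background on either. Only Tat of 10 hepatocyte markers and 4 of 10 macrophage markers were detected on either array. Of the adipose stromal markers, which mesenchymal cells share, 9 of 10 were detected, with a summed linear signal of 27839 in untreated cells and 26175 with medium. Of 9 mesothelial markers with a probe 4 were detected, with a summed linear signal of 17497 in untreated cells and 11549 with medium. They were Msln (14.04 and 13.40), Krt19 (9.38 and 9.36), Krt8 (4.37 and 3.58) and Krt18 (4.34 and 6.17, past the 2-fold rule), while Upk3b, Upk1b, Wt1, Lrrn4 and Gpm6a were not well above background on either array.

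Expression was read as the quantile-normalized log2 processed signal of each gene's brightest RefSeq probe, and genes were called higher or lower from a 2-fold difference on, given detection above background on the brighter of the arrays. Among 13289 genes measured, 343 were higher with medium (2.58%) and 277 were lower (2.08%), together 4.67%. Higher genes made up 55.3% of those past the rule, against 40.4% with 75th percentile scaling and 64.9% with median scaling. The median gene on both arrays differed by 0.067, and by 0.30 with median scaling. In a bulk sample, fewer cells with a transcript and less transcript per cell cannot be told apart.

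The share of genes past the rule depended strongly on brightness. It was 16.0% of 2455 genes with a mean log2 level under 5, 5.97% of 1726 genes from 5 to 7, 2.10% of 4295 genes from 7 to 10 and 0.727% of 4813 genes from 10 up. Replicate spots of a probe gave an SD of the log2 difference of 0.21 under a level of 5, 0.13 from 5 to 7 and 0.064 above 7, which holds no variation between cultures. With normexp background correction, which shrinks differences of dim probes, 68 of the 129 genes picked for description and past the rule still passed it, and 129 kept their direction. In the plot of difference against level, bright genes outside the 2-fold lines are few, and both gene groups described first are marked there.

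**Figure D1:**
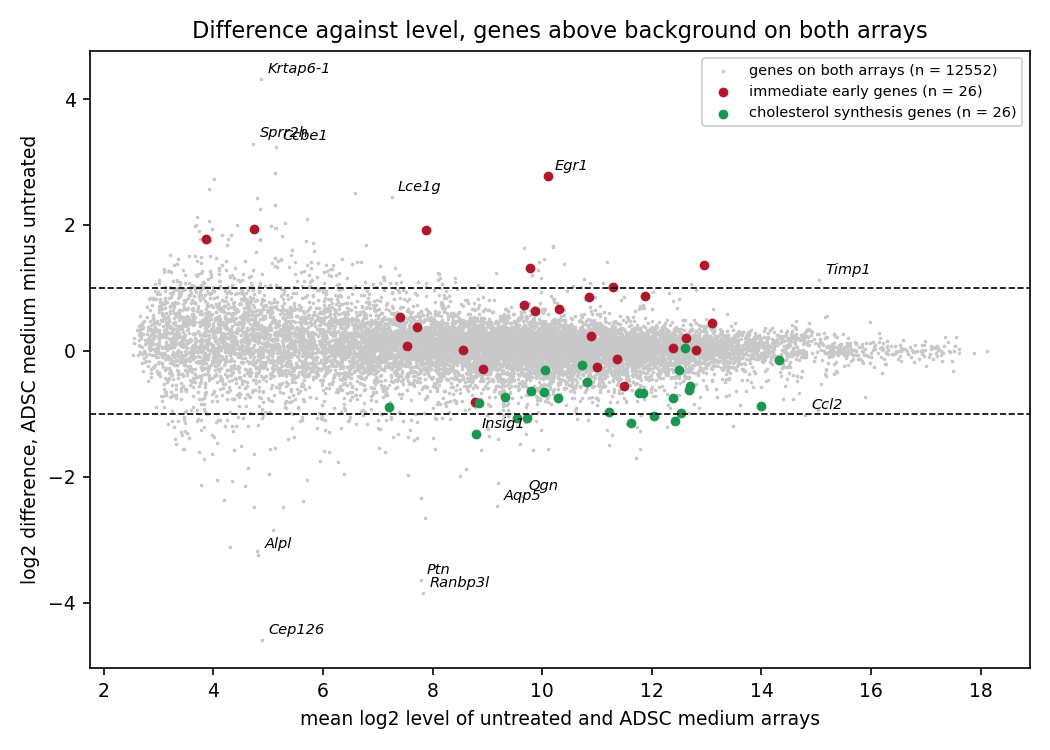
Each point is 1 of 12552 genes well above background on both arrays. The x axis gives the mean log2 level and the y axis the log2 difference, ADSC medium minus untreated, with dashed lines at 2-fold. Of the marked genes, 26 immediate early genes reach up to 2.77 (Egr1) and 26 cholesterol genes down to -1.32 (Insig1).

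Some transcription factors of the immediate early class were higher with medium. These genes are switched on within minutes of growth factor, serum or stress signals, largely through MAP kinases, and code for factors that then act on other genes. Among the 27 measured, 8 passed the 2-fold rule upwards and 0 downwards, against 2.58% and 2.08% of all genes. The median difference of the 26 members on both arrays was 0.49, against 0.067 for all genes, and 21 of them were above 0. In the pair with IL17A the median was 0.29, with 4 genes higher and 1 lower.

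Egr1, a zinc finger factor, measured 8.72 in untreated cells, 11.49 with medium, 7.94 with IL17A and 10.41 with IL17A plus medium. Egr2, of the same family, measured 8.84 with medium against 6.92 untreated, and 8.46 against 6.77 in the IL17A pair. Both medium arrays were above both arrays without medium for these genes, and the difference from untreated was 2.77 for Egr1 and 1.92 for Egr2. Egr3 was not well above background on either array without medium and measured 5.93 with medium and 5.37 with both, which made it at least 12-fold higher with medium. Fos, a partner in the AP-1 complex, measured 3.78 in untreated cells and 5.72 with medium, and 4.97 and 5.11 in the same order with IL17A. Its IL17A array was also above the untreated array, and the groups with and without medium lay closer there, at 0.14 apart against 1.94 without IL17A. Fosb followed the same order with 2.98 untreated, 3.94 with IL17A, 4.77 with medium and 4.49 with both.

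Other members differed less. Junb, another AP-1 subunit, measured 12.27 in untreated cells, 13.64 with medium, 13.72 with IL17A and 14.27 with IL17A plus medium, so that IL17A alone and medium alone gave nearly the same level. Ier2 measured 10.43 with medium against 9.12 untreated, and 10.27 against 9.19 in the IL17A pair, with both medium arrays above both others. Myc, a growth regulator, was just past the rule at 1.02. Fosl1 (0.86), Ier3 (0.85), Jun (0.72), Maff (0.67) and Klf10 (0.64) were above 0 without passing it. Jund (0.015), Klf2 (0.051) and Atf3 (0.080) were near 0, and Nab2, a corepressor of Egr factors, was at -0.81. With normexp correction, Fos (0.63) and Fosb (0.44) no longer passed the rule, while Egr1 (2.74) and Egr2 (1.53) did.

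The stretches of 250 bases before the listed start of Egr2, Fos and Areg are shown because these genes were among the highest of the immediate early and EGF receptor ligand groups and the motif TGACG recurs there. They are RefSeq sequences of the GRCm38.p6 build, written 5′ to 3′ on the plus strand, on which all 3 genes lie, and for Egr2 the start with the most motifs of 5 listed was taken. Capitals mark TGACG on either strand, the core of the cyclic AMP response element, and in Egr2 also a CArG box, the motif bound by serum response factor.
Egr2, chr10:67537619-67537868: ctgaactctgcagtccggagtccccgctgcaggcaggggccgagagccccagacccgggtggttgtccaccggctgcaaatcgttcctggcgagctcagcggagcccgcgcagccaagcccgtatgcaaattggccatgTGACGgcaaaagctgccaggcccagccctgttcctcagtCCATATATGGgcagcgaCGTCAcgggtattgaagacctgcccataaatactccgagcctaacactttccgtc
Fos, chr12:85473640-85473889: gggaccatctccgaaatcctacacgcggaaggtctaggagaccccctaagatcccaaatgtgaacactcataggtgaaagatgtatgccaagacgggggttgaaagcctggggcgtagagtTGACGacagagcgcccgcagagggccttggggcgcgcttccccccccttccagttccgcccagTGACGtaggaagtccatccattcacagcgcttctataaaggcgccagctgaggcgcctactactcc
Areg, chr5:91139349-91139598: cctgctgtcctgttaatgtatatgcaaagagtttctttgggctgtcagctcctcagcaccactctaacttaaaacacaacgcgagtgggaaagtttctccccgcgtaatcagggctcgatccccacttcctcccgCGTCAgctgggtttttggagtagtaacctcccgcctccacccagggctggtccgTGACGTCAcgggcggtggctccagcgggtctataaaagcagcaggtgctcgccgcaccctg
In Areg, 2 of the 3 matches overlap on opposite strands. Of 23 immediate early genes with a listed promoter, 16 held TGACG (69.6%) and 2 a CArG box (8.70%), against 19.8% and 1.62% of 27025 genes. TGACG was also before 4 of 8 EGF receptor ligand and receptor genes and 8 of 19 cholesterol genes (42.1%). It was before 0 of 12 fatty acid genes. The cholesterol list, described below, lay lower with medium, so TGACG did not mark only lists that lay higher. TGANTCA, the AP-1 motif, was in 0 of the 23, against 7.82% of all. These matches are letters in a window and show no binding.

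Of 10 measured EGF receptor ligands and receptors, 4 ligands were higher and 0 genes lower, against 2.58% and 2.08% of all genes. The list median was 0.86, against 0.067 for all genes. In the pair with IL17A 1 of 9 was higher and the median was 0.25. Areg (amphiregulin) measured 4.17 in untreated cells and 6.11 with medium, and 4.08 and 5.06 in the same order with IL17A. Hbegf (heparin-binding EGF) measured 10.48 untreated, 10.21 with IL17A, 11.89 with medium and 11.40 with both. For both genes the medium arrays were above the arrays without medium, by 1.94 and 1.41 without IL17A and by 0.98 and 1.19 with it. Ereg (epiregulin) was at 1.04, and Btc (betacellulin), not well above background without medium, was higher by at least 2.67-fold. The ligands Epgn (0.96), Tgfa (0.86), Egf (0.23) and Nrg1 (-0.45) stayed under 2-fold, as did the receptor genes Erbb2 (0.24) and Egfr (-0.41, with another probe at 0.22). The order of the 4 arrays in the plot of early genes differs from gene to gene, and Areg, Ereg and Btc lie under a log2 level of 7 there. With normexp correction Areg (0.83), Ereg (0.40) and Btc (0.06) did not pass the rule and Hbegf (1.45) did.

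**Figure D2:**
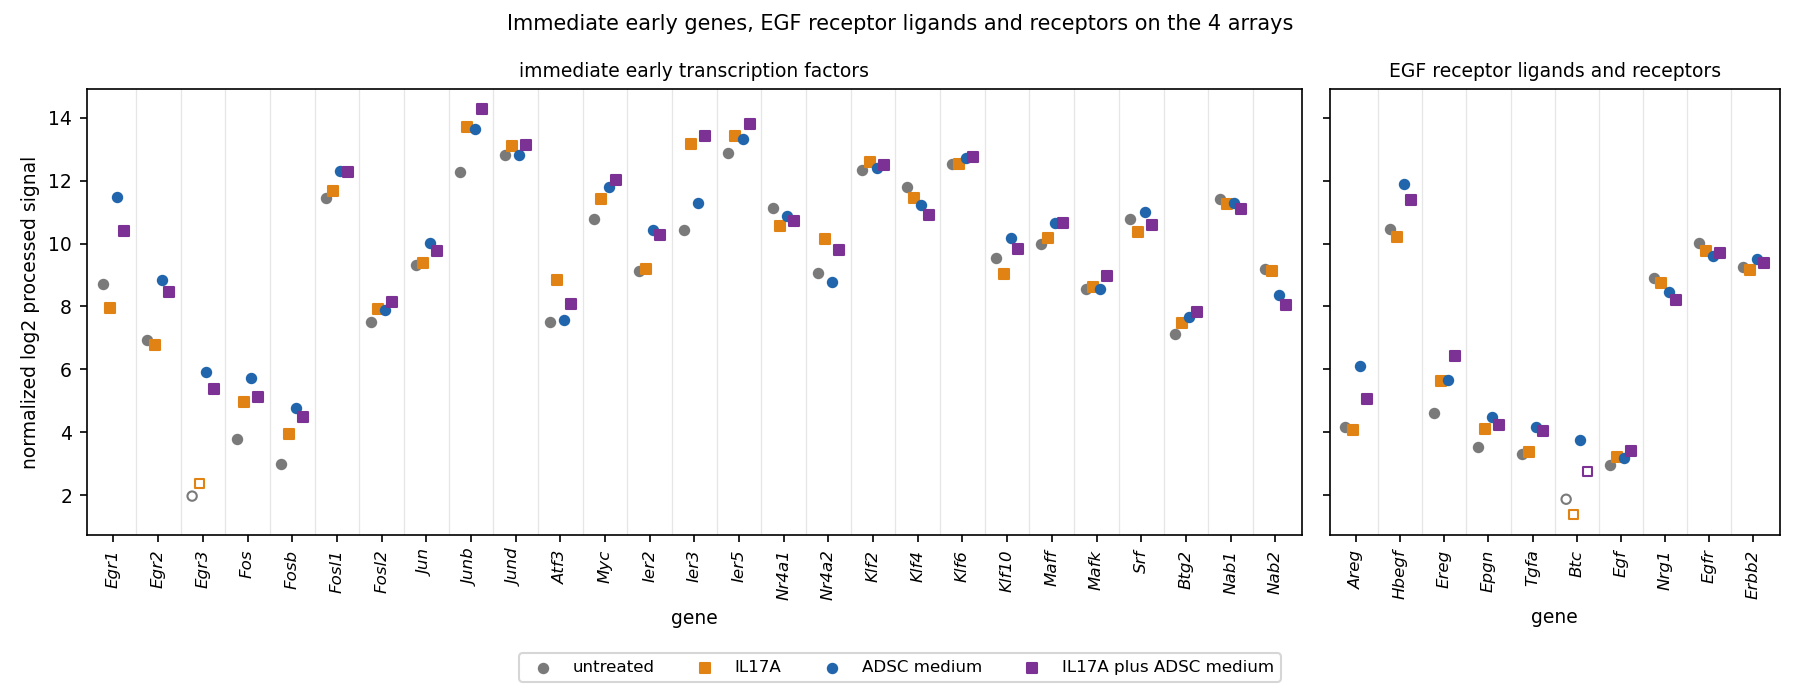
Normalized log2 processed signal (y axis) of the 27 measured immediate early genes and 10 measured EGF receptor ligands and receptors (x axis). Circles are cultures without IL17A and squares cultures with it, and open symbols are not well above background. Egr1 and Hbegf lie higher on both medium arrays than on both other arrays.

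Feedback genes of the MAP kinase pathway went both ways. Of 19 measured, 3 were higher and 1 was lower, against 2.58% and 2.08% of all genes, with a median of 0.0034. Dusp6, the phosphatase of ERK kinases, measured 10.04 in untreated cells, 11.07 with medium, 9.82 with IL17A and 10.87 with IL17A plus medium, and both medium arrays were above both others. Errfi1, an inhibitor of the EGF receptor, was at 1.01 and Spred3, an inhibitor of Ras signalling, at 1.22. Dusp1, which acts on stress kinases, was at -0.94, and Spry1, an antagonist of receptor tyrosine kinases, measured 7.53 with medium against 8.61 untreated, and 6.85 against 7.13 in the IL17A pair. For Spry1 the untreated array was the highest of the 4.

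Some genes of cholesterol synthesis were lower with medium, and most others lay below 0 without passing the rule. Their transcription is driven by SREBP factors, which SCAP carries to the Golgi for release when sterols are scarce and which INSIG proteins hold back in the endoplasmic reticulum when sterols are plentiful. Among the 26 measured, 6 were lower by 2-fold or more and 0 higher, against 2.08% and 2.58% of all genes. The median was -0.74, against 0.067 for all genes, and 25 of 26 were below 0. In the second pair of cultures, with IL17A, the median was -0.67 and 5 genes were lower. Every member but Acat2 lay above a log2 level of 8 on each array.

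Insig1, itself an SREBP target, measured 9.44 in untreated cells and 8.13 with medium, and 8.95 and 8.23 in the same order with IL17A. Idi1, which isomerizes isopentenyl diphosphate, measured 12.55 untreated, 12.52 with IL17A, 11.52 with medium and 11.51 with both. Fdps, the farnesyl diphosphate synthase, measured 12.97 in untreated cells, 11.86 with medium, 12.96 with IL17A and 11.74 with IL17A plus medium. In each of these genes both medium arrays were below both arrays without medium, with differences of -1.32, -1.03 and -1.11 from untreated. Lss, which closes the first sterol ring system, measured 9.0 with medium against 10.06 untreated, and 8.91 against 10.06 in the IL17A pair. The late-step enzymes Hsd17b7 and Nsdhl were at -1.14 and -1.07, and with IL17A at -0.77 and -1.13. The early enzyme Hmgcs1 measured 13.02 in untreated cells and 12.03 with medium, and 12.79 and 12.09 in the same order with IL17A, and it stayed just short of 2-fold at -0.99. Sqle, the squalene epoxidase, was at -0.55. Scap (0.039) was the sole member above 0, and the late enzyme gene Ebp was at -0.14. Under median scaling only Insig1 (-1.11) of the 6 genes still passed 2-fold, while Fdps was at -0.81 and Idi1 at -0.73.

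The 250 bases before the starts of Insig1, Idi1 and Hmgcs1 are shown for their CCAAT boxes, the motif bound by NF-Y, a factor known to act with SREBP. They are RefSeq sequences on GRCm38.p6, plus strand, on which the 3 genes lie, with capitals for CCAAT on either strand and, in Hmgcs1, also for TCACNCCAC, a sterol regulatory element. Matches to TGACG in Insig1 and Hmgcs1 were left in lower case.
Insig1, chr5:28071162-28071411: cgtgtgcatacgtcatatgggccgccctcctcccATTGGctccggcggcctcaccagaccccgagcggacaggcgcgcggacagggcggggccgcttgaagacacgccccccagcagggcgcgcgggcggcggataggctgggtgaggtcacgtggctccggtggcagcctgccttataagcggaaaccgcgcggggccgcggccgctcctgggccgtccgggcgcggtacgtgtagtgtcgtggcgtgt
Idi1, chr13:8885356-8885605: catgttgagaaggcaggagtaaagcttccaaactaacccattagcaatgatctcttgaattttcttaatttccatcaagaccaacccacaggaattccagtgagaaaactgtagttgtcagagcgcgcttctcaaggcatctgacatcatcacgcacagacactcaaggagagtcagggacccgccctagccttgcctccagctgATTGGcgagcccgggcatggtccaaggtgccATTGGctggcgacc
Hmgcs1, chr13:119690101-119690350: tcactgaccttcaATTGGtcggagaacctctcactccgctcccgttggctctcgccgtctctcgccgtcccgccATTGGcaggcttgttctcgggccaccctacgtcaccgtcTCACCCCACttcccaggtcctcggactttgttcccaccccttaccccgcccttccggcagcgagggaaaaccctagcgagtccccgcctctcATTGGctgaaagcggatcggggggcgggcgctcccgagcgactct
CCAAT was found before 17 of 19 cholesterol genes with a listed promoter (89.5%) and 7 of 12 fatty acid genes (58.3%), against 37.5% of all 27025 genes. TCACNCCAC was found before 1 of the 19 (5.26%), against 1.22% of all. The motif search fixed no distance or strand, and no binding was measured.

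Fatty acid synthesis genes lay below 0 too, with smaller values. None of 14 measured members passed the rule, against 4.67% of all genes. The median was -0.41, and 13 were below 0. The desaturase genes Scd2 and Scd1 measured 14.56 and 10.56 with medium against 15.49 and 11.43 without, and Fads2 (-0.66), Fads1 (-0.60) and Acss2 (-0.74) followed. Fasn, the fatty acid synthase, was at -0.33. Of 9 measured sterol efflux genes and LXR targets 1 was lower and 0 higher, against 2.08% and 2.58% of all genes. Of the 9, 6 were below 0. Abca1, the cholesterol efflux pump, measured 8.03 untreated, 7.76 with IL17A, 6.71 with medium and 6.13 with both, and Abcg1 was at -0.89 without IL17A and -1.45 with it. Lpcat3 was at -0.81, while Apoe was at 0.43 and Nr1h3, which encodes LXR alpha, at 0.51.

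**Figure D3:**
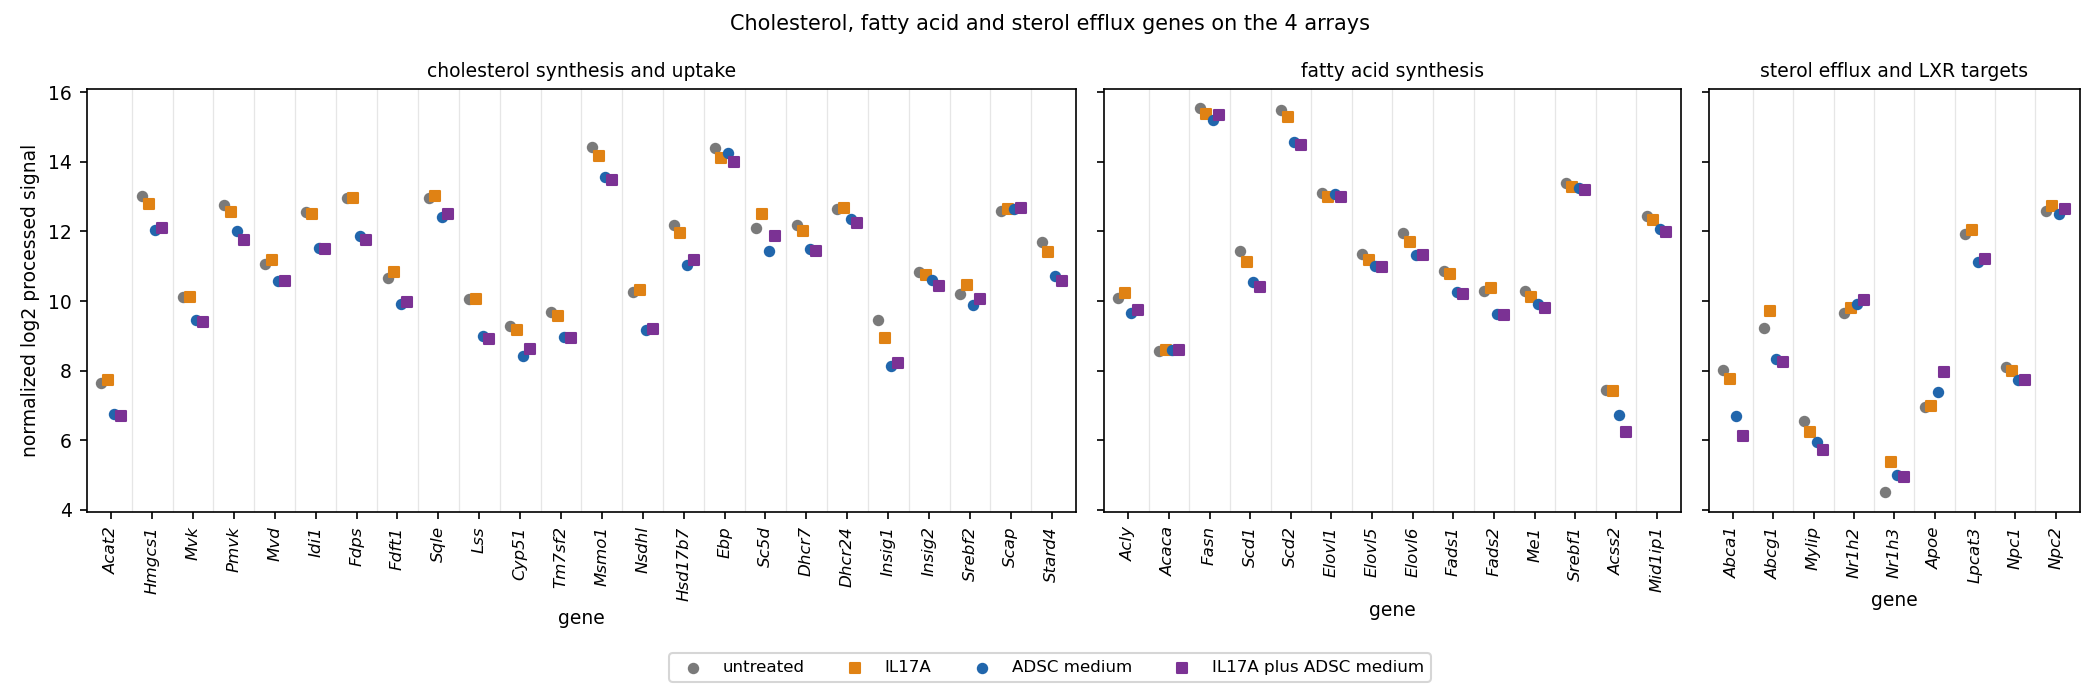
Normalized log2 processed signal (y axis) of 24 of the 26 measured cholesterol genes, 14 fatty acid and 9 sterol efflux genes (x axis). Circles are cultures without IL17A and squares cultures with it. In Fdps, Lss and Nsdhl the 2 medium arrays lie about 1 log2 unit below the other 2.

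Of 9 measured chains of fibril-forming collagens 2 were at least 2-fold lower and 0 higher, against 2.08% and 2.58% of all genes. The median was -0.45. Col3a1 measured 12.34 in untreated cells, 11.13 with medium, 12.69 with IL17A and 11.15 with IL17A plus medium, with both medium arrays below both others. The type I chains did not pass the rule. Col1a1 measured 14.36 with medium against 15.03 untreated, and 13.95 against 14.14 in the IL17A pair. Col1a2 measured 14.77 in untreated cells and 14.01 with medium, and 13.87 and 13.29 in the same order with IL17A, and the untreated array was the highest for both. Col2a1, a cartilage collagen at a low level here, measured 6.52 untreated, 7.04 with IL17A, 4.03 with medium and 3.58 with both by its brightest probe, and its other probe was at -0.016. Among 16 other collagens 2 were lower, Col4a5 (-1.10) and Col6a3 (-1.09), and their median was -0.37. In the pair with IL17A the median of the fibril-forming chains was -0.039.

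Small leucine-rich proteoglycans, which coat collagen fibrils, had the lowest median of the 57 lists at -0.78, over 6 members on both arrays. The middle members, Prelp (-0.84) and Fmod (-0.71), were at -0.21 and -0.11 with normexp correction. Ogn (osteoglycin) measured 10.78 in untreated cells, 8.47 with medium, 8.47 with IL17A and 7.25 with IL17A plus medium. Omd (osteomodulin) measured 4.44 with medium against 6.83 untreated, and 3.47 against 5.0 in the IL17A pair. Both genes were highest in untreated cells and lower on each of the other 3 arrays, including the array with IL17A alone. Dcn (decorin) was at -0.054 and Bgn was at 0.36. Aspn, near background in untreated cells and dim with medium, had a bound of -0.50 and did not pass the rule.

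Matricellular genes included members in both directions, with 2 of 20 higher and 1 lower, against 2.58% and 2.08% of all genes. Postn (periostin) measured 6.53 in untreated cells and 7.69 with medium, and 4.72 and 7.07 in the same order with IL17A, and the medium arrays were above the arrays without medium, by 1.17 and 2.36. Tnc (tenascin C) was at 1.11, Ccn2 (connective tissue growth factor) at 0.94 and Ccn5 at -1.03. The TGF-beta list, with ligands, receptors and response genes, had a median of 0.22, and 1 of 25 members passed, Tgfb2 at -1.61. Tgfb1 (0.67) and Pmepa1 (0.81) were above 0, and none of 22 contractile and cytoskeletal genes passed, at a median of -0.0064 (0.36 with median scaling). Of the BMP group, Id1, an inhibitor of differentiation, measured 9.28 untreated, 10.48 with IL17A, 10.57 with medium and 10.96 with both, while Bmp6 (-1.33) and the antagonist gene Fst (-1.30) were lower. With normexp correction Bmp6 (-0.25), Fst (-0.27), Tgfb2 (-0.93), Postn (0.78) and Tnc (0.31) did not pass the rule. Id1 (1.22) and Ccn5 (-1.03) passed it there.

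Of 11 measured matrix metalloproteinases 1 was higher and 1 lower, and of 8 ADAMTS proteases 0 were higher and 2 lower. Among all genes 2.58% were higher and 2.08% lower. Mmp7 (matrilysin) was well above background on the medium array only, at 4.13, which is at least 3.44-fold above untreated. Mmp3 (stromelysin) measured 6.51 in untreated cells, 3.67 with medium, 8.27 with IL17A and 5.83 with IL17A plus medium. Each medium array was below its partner without medium, and the IL17A array was the highest of the 4. With normexp correction Mmp3 (-1.15) passed the rule and Mmp7 (0.37) did not. The aggrecanase Adamts5 measured 9.05 with medium against 10.62 untreated, and 9.18 against 10.36 in the IL17A pair, and Adamts1 was at -1.26. Timp1, a protease inhibitor, measured 14.48 in untreated cells and 15.61 with medium, and 14.84 and 15.88 in the same order with IL17A, and was among the brightest genes past the rule. Serpinb2, the plasminogen activator inhibitor PAI-2, was not well above background in untreated cells. It measured 4.89 with IL17A, 6.52 with medium and 8.22 with both, which is at least 15.8-fold above untreated with medium alone. Plg, which encodes plasminogen, measured 7.91 in untreated cells and was not well above background on the other 3 arrays.

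Growth factor and receptor genes on the lower side included the heparin-binding growth factor Ptn (pleiotrophin), which measured 9.60 untreated, 8.09 with IL17A, 5.96 with medium and 4.62 with both. Both medium arrays were far below both others, by -3.64 and -3.47, and its receptor syndecan gene Sdc3 was at 1.08 (another probe at 0.24). Pdgfrb, the PDGF receptor of stellate cells, measured 11.81 in untreated cells, 10.55 with medium, 11.49 with IL17A and 10.78 with IL17A plus medium. Igf1 measured 7.26 with medium against 8.82 untreated, and 6.21 against 6.90 in the IL17A pair, and was highest in untreated cells. Among vascular factors, Angpt2 measured 7.16 in untreated cells and 5.40 with medium, and 6.38 and 4.65 in the same order with IL17A, and Angpt1, dim on both medium arrays, was at least 10.7-fold lower than untreated. Angptl4 (1.06) was higher, Vegfc stood at 0.99 and Vegfa at 0.65. With normexp correction Angpt1 (-0.93), Angpt2 (-0.97) and Sdc3 (0.77) did not pass the rule, while Ptn (-2.88), Pdgfrb (-1.26) and Igf1 (-1.32) did. Of 13 angiogenic genes 1 was higher and 2 lower, against 2.58% and 2.08% of all genes. Of 5 PDGF genes 2 were lower, Pdgfrb and Pdgfrl (-1.12).

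Chemokines and cytokines went both ways. Of 18 chemokines 2 were higher and 3 lower, against 2.58% and 2.08% of all genes, with a median of -0.42. Ccl2, which attracts monocytes, measured 15.31 untreated, 17.05 with IL17A, 14.29 with medium and 16.59 with both, and Cxcl5, which attracts neutrophils, measured 8.28 in untreated cells, 7.14 with medium, 13.98 with IL17A and 13.06 with IL17A plus medium. For both, the medium arrays were below their partners, and the IL17A arrays stood far above the arrays without it. Ccl9 was at -1.07, Ccl7 at -0.86 and Cxcl1 at -0.67. The low-level genes Ccl20 (1.84, dim in untreated cells) and Ccl4 (1.05) were higher. No chemokine call held with normexp correction (Ccl2 -0.95, Cxcl5 -0.96, Ccl9 -0.78, Ccl20 0.25 and Ccl4 0.26). Ccl2 also stayed short of 2-fold with 75th percentile scaling (-0.86) and median scaling (-0.64). Il33, an alarmin, measured 6.17 with medium against 4.65 untreated, and 8.65 against 8.39 in the IL17A pair, and Il11, of the interleukin 6 family, was at 1.21. Il6 was near its untreated level, at -0.053. Il1rl1, the receptor for interleukin 33, measured 10.88 in untreated cells and 9.32 with medium, and 11.30 and 9.72 in the same order with IL17A, with both medium arrays below both others. The oncostatin M receptor gene Osmr measured 9.37 untreated, 11.79 with IL17A, 11.02 with medium and 12.16 with both, where untreated cells were the lowest of the 4. Bcl3, of the I-kappa-B family, was the only 1 of 16 NF-kB genes past the rule at 1.20, and that list's median was 0.25 without IL17A and 0.018 with it. With normexp correction Il33 (0.71) and Il11 (0.58) did not pass the rule, while Il1rl1 (-1.51), Osmr (1.49) and Bcl3 (1.17) did.

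Genes linked to the quiescent stellate cell's vitamin A handling were measured in part. Of 14 retinoid genes 3 were lower and 0 higher, against 2.08% and 2.58% of all genes. Dhrs3, which reduces retinal to retinol, measured 6.00 in untreated cells, 4.04 with medium, 8.07 with IL17A and 5.56 with IL17A plus medium, with each medium array below its partner. Rarb, a retinoic acid receptor and target gene, was at -1.18 and Crabp2, a retinoic acid carrier, at -1.08. None of the 3 passed the rule with normexp correction (Dhrs3 -0.80, Rarb -0.40 and Crabp2 -0.57). Hlf, a PAR bZIP factor listed with the circadian genes, measured 3.50 with medium against 5.98 untreated, and 4.92 against 8.02 in the IL17A pair, and it was the sole 1 of 17 clock genes past the rule. Alpl, the alkaline phosphatase of mineralizing tissue, measured 6.44 in untreated cells and 3.20 with medium, and 4.27 and 4.02 in the same order with IL17A. Here the untreated array stood above the other 3, and the pair with IL17A differed by -0.25. Plin4, a lipid droplet protein, was at -1.25 and Cebpa, an adipocyte and liver factor, at 1.12. With normexp correction Hlf (-0.86) and Cebpa (0.37) did not pass the rule, while Alpl (-1.19) and Plin4 (-1.19) did.

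Wnt, Notch and hyaluronan genes past the rule were all on the higher side. Of 18 Wnt genes 4 were higher and 0 lower, against 2.58% and 2.08% of all genes, with a list median of 0.062. Among all genes under a mean level of 5, 16.0% passed the rule in either direction. Lef1, a nuclear partner of beta-catenin, measured 5.20 untreated, 4.50 with IL17A, 6.60 with medium and 6.27 with both. The ligand Wnt2, dim without medium, was at least 4.07-fold higher, and Wnt11 (1.17) and Wnt5a (1.07) also passed at low levels. Hes1, a Notch target, measured 4.39 in untreated cells, 5.86 with medium, 3.87 with IL17A and 5.26 with IL17A plus medium, and for Lef1 and Hes1 both medium arrays were above both others. Has2, the main hyaluronan synthase of fibroblasts, measured 8.72 with medium against 7.48 untreated, and 9.60 against 8.01 in the IL17A pair, and Has1 was at 1.68. With normexp correction Has2 (1.09) passed and Lef1 (0.79), Hes1 (0.59) and Has1 (0.38) did not. Neither did Wnt2 (0.40), Wnt11 (0.25) and Wnt5a (0.19), so none of the 4 Wnt calls held there.

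Cornified envelope genes, known from the outer skin, were higher in part. Of 15 measured, 5 were higher and 0 lower, against 2.58% and 2.08% of all genes, although the median was 0.024. Lce1g measured 6.03 in untreated cells and 8.47 with medium, and 6.30 and 8.95 in the same order with IL17A. Lce1i measured 5.32 untreated, 5.66 with IL17A, 7.84 with medium and 8.23 with both. In both genes the 2 medium arrays were above the 2 others and IL17A made little difference. Sprr2h measured 3.08 in untreated cells, 6.37 with medium, 7.35 with IL17A and 9.67 with IL17A plus medium, where IL17A and medium were each above untreated and both together were the highest. The other Sprr2 genes lay between -0.37 (Sprr2k) and 0.21 (Sprr2g). Genes of the Lce1 and Sprr2 clusters are close copies of each other, so their probes may share signal, which was not tested. The simple keratin gene Krt18 was at 1.82, Krt8 at -0.80 and Krt19 at -0.021. With normexp correction Lce1g (1.78) and Lce1i (1.61) passed the rule, while Sprr2h (0.98) and Krt18 (0.79) did not.

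Groups of basic cell functions lay near the median of all genes. None of 31 DNA replication, 24 mitosis, 32 oxidative phosphorylation, 19 endoplasmic reticulum chaperone, 14 heat shock, 17 MHC class I and 15 housekeeping genes passed the rule. Their medians were 0.090, 0.072, 0.0057, -0.086, 0.0057, 0.19 and 0.057. Among all genes measured 2.58% were higher and 2.08% lower. The share past the rule in either direction was 2.10% at a mean level from 7 to 10 and 0.727% from 10 up. The cell cycle inhibitor gene Cdkn1a nevertheless measured 11.09 with medium against 9.72 untreated, and 11.21 against 9.91 in the IL17A pair, with both medium arrays above both others, and of 20 p53 targets it and Eda2r (1.11) passed while Mdm2 was at 0.59. Of 22 glycolysis genes 2 were higher, the lactate exporter Slc16a3 and the glucose transporter Slc2a3, at 1.08 and 1.07, against -0.31 and 0.070 with IL17A. Adm (adrenomedullin) was at -1.58 and Car12, a carbonic anhydrase, at 1.41 among 16 hypoxia genes. In the plot of list medians, 41 of the 57 lists lie within 0.2 of 0 and the cholesterol list stands low in both pairs of arrays.

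**Figure D4:**
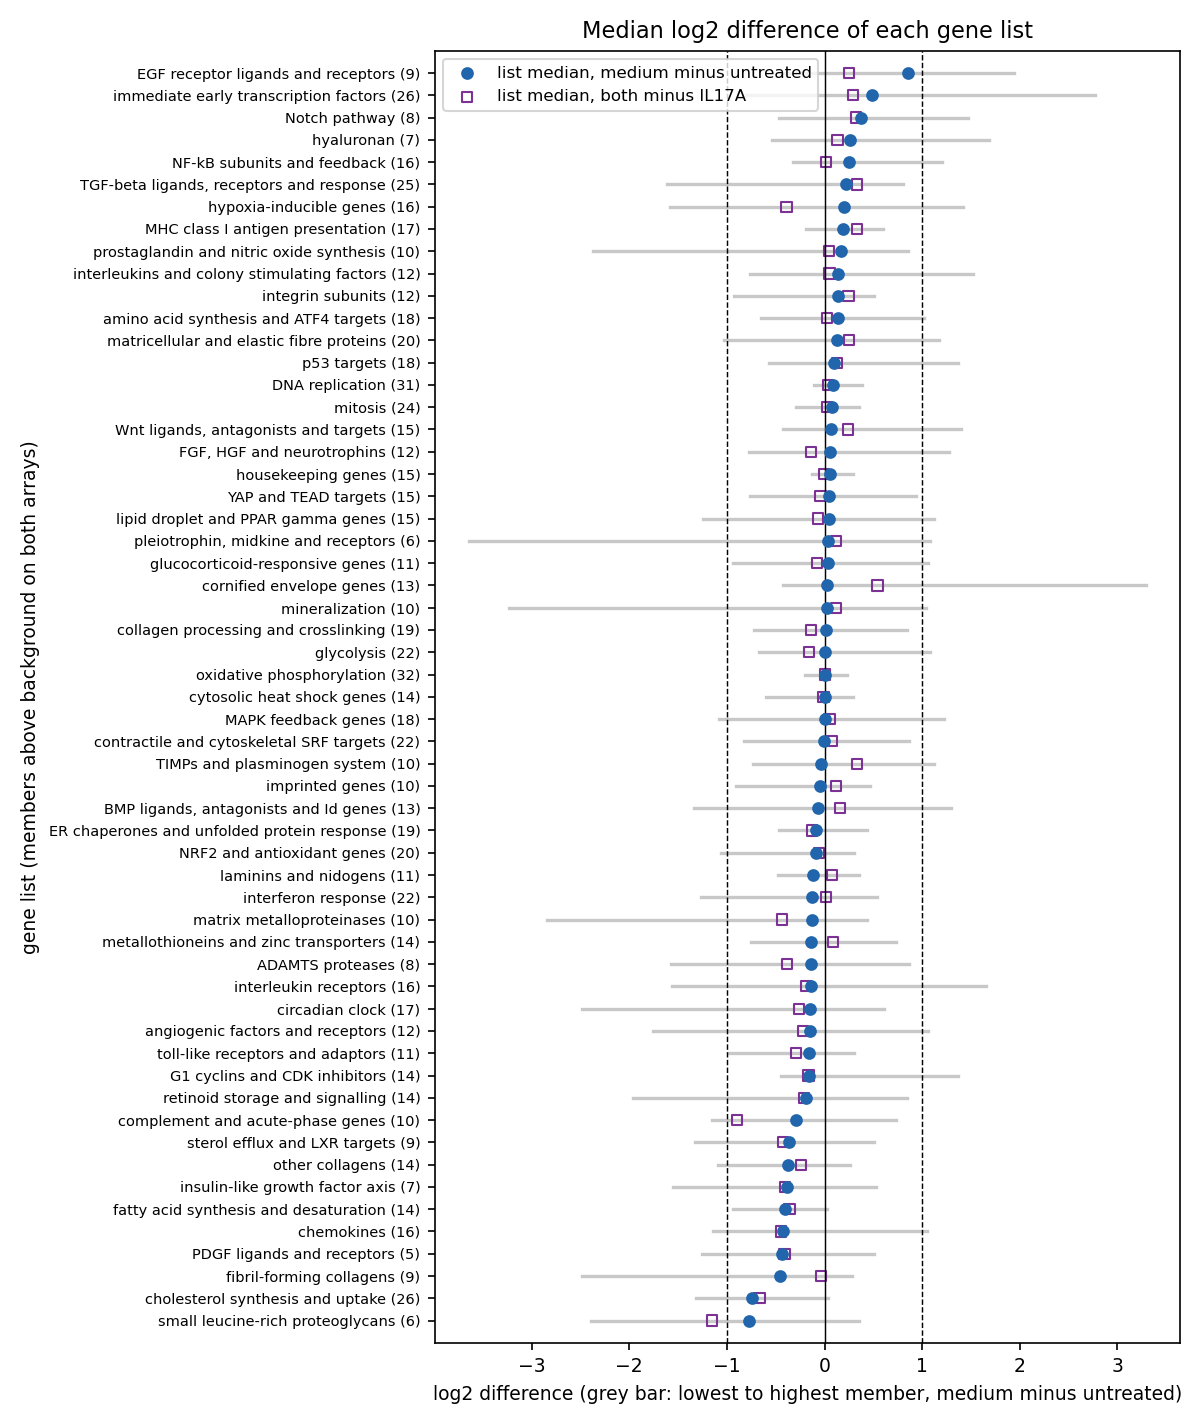
Median log2 difference of the 57 gene lists over members well above background on both arrays (number in brackets). Filled circles are ADSC medium minus untreated, open squares IL17A plus ADSC medium minus IL17A, grey bars the lowest to highest member of the first, and dashed lines mark 2-fold. The medians of the first run from -0.78 (small leucine-rich proteoglycans) to 0.86 (EGF receptor ligands and receptors).

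The largest single differences lay mostly at low levels. On the higher side Krtap6-1, a hair keratin-associated protein, measured 2.71 in untreated cells and 7.03 with medium, and 3.31 and 2.85 in the same order with IL17A, so the medium array stood alone. Ccbe1, a secreted factor of lymphatic development, measured 3.52 untreated, 7.55 with IL17A, 6.77 with medium and 9.07 with both, and was highest with both treatments. Dok7, an adaptor of the muscle kinase MuSK, was at 2.74 and the ETS factor gene Fev at 2.42, again with the medium array the highest of the 4. Zscan4c, Tcstv1 and Pramel37, of multicopy families known from early embryos, were at 2.31, 2.58 and 2.26. On the lower side Cep126, a centrosomal protein, measured 7.18 in untreated cells, 2.59 with medium, 1.84 with IL17A and 2.93 with IL17A plus medium (not well above background on the IL17A array), and the untreated array stood alone. Ranbp3l, of the Ran-binding protein family, measured 5.90 with medium against 9.75 untreated, and 6.60 against 10.50 in the IL17A pair, with both medium arrays below both others. Klhl30 measured 9.18 in untreated cells and 6.52 with medium, and 5.78 and 3.78 in the same order with IL17A, and the water channel gene Aqp5 measured 10.41 untreated, 9.90 with IL17A, 7.94 with medium and 6.94 with both. Zfp141 (-3.18) was highest in untreated cells.

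Some calls rested on 1 array of the 4. Of the 343 higher genes, 59 (17.2%) were well above background on the medium array only, and of the 277 lower genes, 89 (32.1%) on the untreated array only. Otulinl measured 7.58 on the medium array and 0.39, 0.42 and 0.51 on the others, which is at least 37.8-fold, although its other probe differed by 0.64. The olfactory receptor genes Olfr497 and Olfr1213 and the ETS factor gene Elf5 showed the same picture, at least 17.1-fold, 16.8-fold and 12.3-fold. On the other side Plg was at least 43.2-fold lower with medium, Olfr1423 40.4-fold and Ceacam3 16.3-fold, each dim on the 3 arrays other than untreated. What sets these arrays apart was not tested.

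The same medium difference was read in cells with IL17A, as IL17A plus ADSC medium minus IL17A. There 225 of 13067 measured genes were higher (1.72%) and 328 lower (2.51%), together 4.23%. Of 12768 genes measured in both pairs, 77 were higher in both (0.603%), 113 lower in both (0.885%) and 6 went opposite ways (0.047%). The 77 genes are 22.4% of the higher genes without IL17A and 34.2% of those with it, and the 113 genes are 40.8% and 34.5% of the lower genes. The pairs share no array, but both set slide 2 against slide 1.

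Genes lower in both pairs and well above background on all 4 arrays were led by Ranbp3l (-3.85 without IL17A and -3.90 with it), Ptn, Col2a1, Hlf, Aqp5 and Mmp3, described above. They were followed by Rab3il1, which acts on Rab GTPases, with -2.05 and -2.22, and Gxylt2, a xylosyltransferase, with -2.33 and -2.04. Slco4a1, an organic anion transporter, measured 10.23 in untreated cells, 8.14 with medium, 11.15 with IL17A and 9.26 with IL17A plus medium. Genes higher in both were led by Lce1i, Egr1, Lce1g and Sprr2h. Cox6a2, a muscle form of a cytochrome oxidase subunit, measured 6.05 with medium against 4.07 untreated, and 6.10 against 4.01 in the IL17A pair. Acsbg1, an acyl-CoA synthetase, measured 9.37 in untreated cells and 11.04 with medium, and 9.5 and 11.26 in the same order with IL17A. In both genes each array with medium was above each array without it. Slc16a11, of the monocarboxylate transporter family, was at 2.09 and 1.95. Krtap6-1, Alpl and Zfp141, far apart without IL17A, differed by -0.45, -0.25 and -0.31 with it, as the plot of both medium differences shows.

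**Figure D5:**
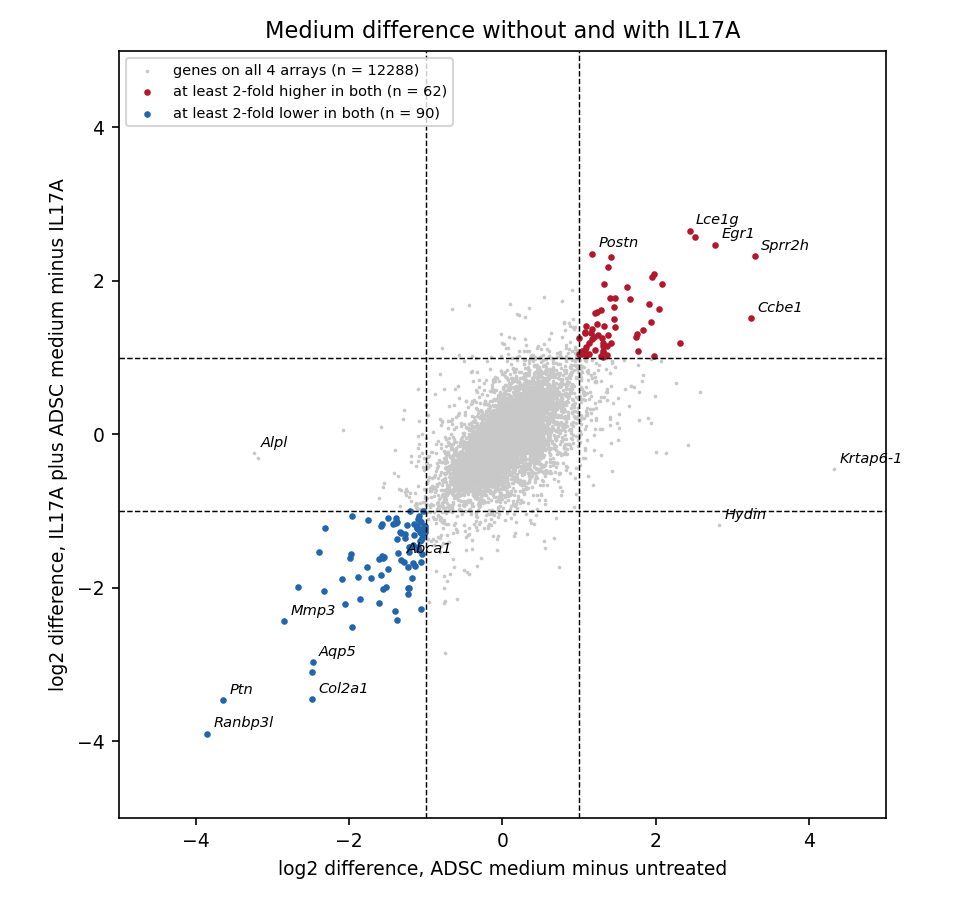
Each point is 1 of 12288 genes well above background on all 4 arrays. The x axis gives the log2 difference of ADSC medium minus untreated and the y axis that of IL17A plus ADSC medium minus IL17A, with dashed lines at 2-fold. The 62 coloured genes at upper right were higher in both pairs and the 90 at lower left were lower in both.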

How the data were processed

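Total RNA of 4 IMS/N cultures was labelled with Cy3 and hybridised to 1-colour Agilent arrays, per the labels' protocols. Per the file headers, the deposited intensity values are the processed signals of Feature Extraction 12.1.1.1, from which background and spatial trend had been removed, without normalization between arrays. Per the file headers, the deposited score columns flag with 0 or 1 whether a spot was above background, saturated or an outlier. The submitters' processing notes list R 3.5.1, and the series text names quantile normalization, which was repeated here. The authors' gene lists were not used.

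Control spots and outlier spots (97 to 134 per array) were left out, and no spot was saturated. Log2 signals were quantile normalized over 4 arrays and averaged per probe. Of 41174 probes, 28548 with an NM_ or NR_ accession were used, 28353 of them named by that accession in the RefSeq GRCm38.p6 table, which gave 19293 genes. Each gene took its brightest such probe, and of 207 genes past the rule with several probes, 191 (92.3%) had all measured probes in 1 direction. Only probes well above background on the untreated or medium array were compared. Genes with a single such probe count among the 191 by construction, so the share overstates how far probes agree. The lowest signal well above background on an array (2.34 untreated and 2.47 with medium) replaced a dimmer value, and such folds are given as "at least". That signal is not the limit of the gene's own probe. The number of arrays limits the precision.

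Members and the 57 gene lists were chosen with earlier results of these data known. The naming rule took 12 genes per direction above background on both arrays, 6 bounds per direction, 12 per direction in both medium comparisons, and up to 8 members per list, leaving out predicted names and genes with probes in opposite directions. Of these the text names a part, and a few genes are not reported here. Egfr, whose probes disagree, is named for its role. The promoters shown, and the genes set beside normexp values, were picked after the values were seen. Alternatives were 75th percentile and median scaling, normalization over 2 arrays, normexp (limma 3.58.1, R 4.3.3, offset 50), other probe filters, and 1.5-fold and 4-fold thresholds. Python 3.11.15, pandas 2.3.3 and NumPy 2.4.6 were used, and the size rule was tested on simulated data.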

Additional observations from a re-analysis of the deposited data

Results flagged for a closer look

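In 2 of the genes picked for description, the medium difference reached 2-fold in opposite directions in the pairs without and with IL17A. The difference between the pairs was not tested. For the chemokine gene Ccl20, whose untreated signal was dim, the medium difference was 1.84 without IL17A and -1.20 with it. Hydin, a protein of motile cilia, differed by 2.82 without IL17A and by -1.18 with it. With probes that lack a RefSeq accession included, Hydin was read from another probe, which differed by -1.98 without IL17A. Across all genes, 6 went opposite ways past the 2-fold rule, among them Grin3a and Muc1, named after their values were seen. The highest log2 level of these 4 genes on any array was 6.54, of Hydin with medium.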

How the results depend on the processing

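No paired analysis was possible because each group had 1 array and the labels carry no replicate numbers. The counts of genes higher and lower with medium were 343 and 277. They were 46 and 81 with normexp, 228 and 166 for genes above background on both arrays, 205 and 143 on all 4, 854 and 664 with no filter on dim probes, 1037 and 725 at 1.5-fold and 45 and 67 at 4-fold. With all probes 479 were lower. The count in the same direction in both medium comparisons was 190, and it was 57 with normexp, 385 with no filter, 704 at 1.5-fold and 18 at 4-fold. By construction a filter or threshold changes which genes can pass, and normexp shrinks dim differences. Of 3465 values of single genes 3396 kept their sign, and of 558 list medians 517 did. Hydin turned to -1.98 with all probes, from another probe. Median scaling moved the median of all genes from 0.067 to 0.30, and with that shift 16 list medians below 0 turned positive. Of these, 12 had been further below 0 than 0.064, the SD of replicate spots above a level of 7. That SD is larger for dimmer probes and does not measure the spread of a list median. The 12 were laminins 0.15, BMP genes 0.086, ADAMTS proteases 0.013, interleukin receptors 0.11, toll-like receptors 0.070 and interferon response 0.12. They also included G1 cyclins 0.12, endoplasmic reticulum chaperones 0.14, NRF2 genes 0.18, metallothioneins 0.069, circadian genes 0.093 and retinoid genes 0.035. The other 4 were contractile genes 0.36, TIMPs and the plasminogen system 0.16, imprinted genes 0.057 and stellate cell markers 0.36. With no filter 6 medians turned positive, among them other collagens (0.013), BMP genes (0.024) and PDGF genes (0.22). Signals near background limit the rest: 115 of the 343 higher and 111 of the 277 lower genes were dim on 1 of the 2 arrays.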
